A study of Loxodonta africana with 12 samples.

Results

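The genes described here encode translation initiation and elongation factors of the African elephant (Loxodonta africana). They were chosen by symbol alone, as every gene whose symbol begins with EIF followed by a digit from 1 to 6 or with EEF followed by 1 or 2. The rule found 49 of 16406 genes, and it used no measured value. A further 3 genes without a symbol are described in the deposited annotation as eIF3 subunits and were not included. EIF4B, EIF4EBP3, EIF5, EIF5A, EIF5A2 and EEF1A1 had no gene under that symbol in the deposited annotation. The rule could therefore not include them, and rankings below are among the genes it found.

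RNA from blood cells was sequenced in 12 libraries, made from total RNA after depletion of ribosomal RNA with a stranded kit. The labels give 4 groups of 3 libraries each: untreated cells at 5 h, cells irradiated with 2 Gy at 5 h, untreated cells at 24 h, and cells irradiated with 2 Gy at 24 h. All groups come from blood of the same species, and the labels state no genotype, age or animal for any library. Whether replicates are separate animals, draws or cultures is not stated, so each p-value here reflects differences among these libraries only, and these may be technical.

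Initiation begins when eIF2 carries the initiator tRNA to the small ribosomal subunit, where eIF1 and the large eIF3 complex help it to find the start codon. The mRNA is brought in by the cap-binding protein eIF4E, the scaffold eIF4G and the RNA helicase eIF4A, and eIF4E-binding proteins block that step when the TOR kinase is inactive. Kinases that phosphorylate eIF2 lower initiation under stress, eIF5B joins the large subunit, eEF1 delivers aminoacyl-tRNA and eEF2 moves the ribosome along the mRNA.

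Library totals were 31059389 to 38138163 counts at 5 h. At 24 h they were 22924260 to 37356501 in untreated and 18022475 to 23805619 in irradiated libraries. The irradiated libraries of 24 h were thus mostly shallower, and the part of depth in that comparison was not tested. Levels are given as CPM, counts scaled to a common library total with TMM factors over all 12 libraries, and fold changes come from an edgeR fit of the libraries compared, with the Benjamini-Hochberg adjusted p over all genes tested and a threshold of 0.05. Markers of B cells, T cells, NK and cytotoxic cells, monocytes, neutrophils, platelets and erythroid cells were all detected, and none of the marker genes in the tables was at 0 in every library. Monocyte markers, led by ITGAM and CSF1R, had the highest summed level of the 7 lists in every group (2978 to 7023 CPM over the libraries). Of the 49 genes, 48 passed the filter on low counts in each comparison of 2 groups. The exception was EIF4E1B, a cap-binding protein known from oocytes, which had between 0 and 15 counts per library.

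Levels per length, in CPM per kilobase of annotated exon, ranged widely among the genes. In untreated libraries at 5 h the helicase EIF4A1 stood highest at 2136 ± 93 (SD, n = 3). It was followed by EEF2, the translocation factor, at 1095 ± 36, EIF1, which guards start codon choice, at 935 ± 131, EIF4A2 at 792 ± 51 and EEF1B2, a nucleotide exchange subunit of eEF1, at 728 ± 51. EIF4G2 (718 ± 81) and EEF1G (648 ± 32) came next. From EEF2 to EEF1G each SD interval overlapped that of its neighbour in this order, so the order of neighbours below EIF4A1 is not resolved down to EEF1G. The lowest level besides EIF4E1B was that of EIF2B3, a subunit of the exchange factor of eIF2, at 4.75 ± 0.56. At 24 h in untreated libraries EIF4A1 was at 737 ± 66, EIF1 at 677 ± 85 and EEF2 at 654 ± 52, and the SD intervals of these 3 overlapped.

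At 5 h after 2 Gy the factors were close to their untreated levels. In the fit without a replicate block, used here unless stated, there was a single call, EIF4EBP2, which was higher. The fit with the block, which called more genes, is given below. EIF4EBP2 encodes an eIF4E-binding protein, a repressor of cap-dependent initiation. Among the 48 genes tested, 26 log2 fold changes were positive and 22 negative, with a median of 0.02 against 0.00 over all genes. Across all 12969 genes tested, 1.12% were called higher and 0.478% lower. At an unadjusted p below 0.05 there were 2 of the 48, against 1672 of all 12969 genes. The groups did not overlap in 11 of the 48 (22.9%), against 18.7% of all genes, and 8 of these were higher and 3 lower.

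EIF4EBP2 (ENSLAFG00000006809, scaffold 10, 52072547 to 52074006, plus strand) was measured at 6.94, 8.18 and 6.37 CPM in the untreated libraries of 5 h and at 12.4, 12.5 and 11.4 CPM after irradiation. Every irradiated library lay above every untreated library. The log2 fold change was 0.74 ± 0.12 (SE), a 1.68-fold rise with an edgeR adjusted p of 0.027. At 24 h the levels were 7.88, 7.19 and 8.71 CPM without and 11.1, 13.2 and 12.3 CPM with irradiation, again without overlap. That rise was 0.61 ± 0.13 on the log2 scale (1.53-fold, edgeR adjusted p = 0.038). Its counts were between 186 and 393 per library. Its annotated exon length was 219 bases, the shortest of the list, and whether this covers the whole gene was not checked. Leaving out untreated replicate 1 or 3, or replicate 1 or 2 of the irradiated group, ended the call at 5 h (edgeR adjusted p 0.078 to 0.14), with log2 fold changes of 0.66 to 0.72. The related EIF4EBP1, the best-studied repressor of eIF4E, was at 10.3, 9.49 and 9.98 CPM in untreated and 10.1, 12.5 and 11.8 CPM in irradiated libraries at 5 h, which overlap (log2 fold change 0.20 ± 0.11, edgeR adjusted p = 0.52). EIF4ENIF1, which carries eIF4E into the nucleus, had a log2 fold change of 0.04 ± 0.08 (edgeR adjusted p = 0.86).

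At 5 h, libraries that share a replicate number deviated together, and with the replicate number as a block 6 of the 48 genes were called, 5 higher and 1 lower. The block also raised the calls over all genes, to 10.6% higher and 9.92% lower. EIF4EBP2 had a blocked log2 fold change of 0.75 ± 0.09 (edgeR adjusted p = 1.7e-05). EIF5B, the GTPase of subunit joining, was at 72.5, 106 and 66.6 CPM in untreated and 125, 119.8 and 85.1 CPM in irradiated libraries 1, 2 and 3. The irradiated library was higher in each of the 3 pairs, although the groups overlap. Its blocked log2 fold change was 0.42 ± 0.08 (edgeR adjusted p = 0.0013), and without the block it was 0.41 ± 0.20 (adjusted p = 0.45). EEF1A2, an isoform of the tRNA-delivering factor known mainly from muscle and nerve, was lower in each pair, at 13.3, 21.5 and 25.5 against 11.3, 14.4 and 21.5 CPM (blocked -0.36 ± 0.08, edgeR adjusted p = 0.0038). The other blocked calls were small: EIF4A2 at 0.17 ± 0.04 (0.0052), EIF1 at 0.18 ± 0.04 (0.0061) and EIF3A, the scaffold subunit of eIF3, at 0.11 ± 0.04 (0.045), each given as log2 fold change with the edgeR adjusted p in brackets. EIF1 and EIF1B, and EIF4A1 and EIF4A2, are close paralogs, so their values are uncertain where the counting could split shared reads.

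**Figure D1:**
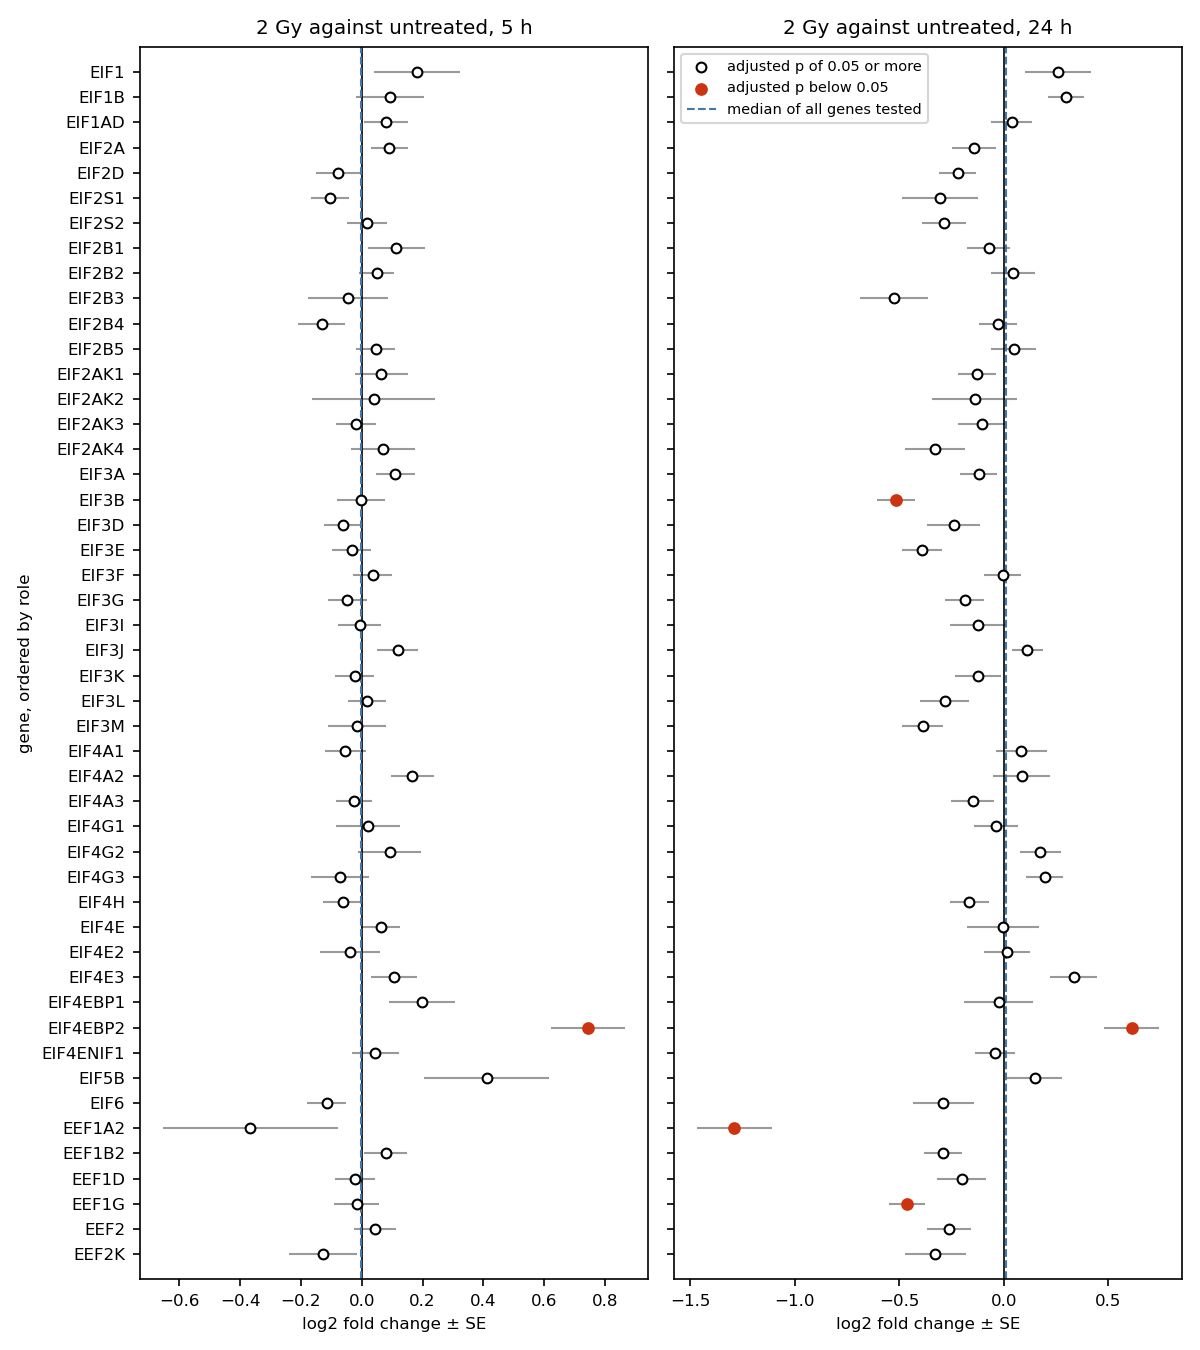
Log2 fold change after 2 Gy (x axis, ± SE) of the 48 tested factors (y axis, ordered by role) at 5 h (left) and 24 h (right), with filled points for an edgeR adjusted p below 0.05 in the fit without a block. EIF4EBP2 lies to the right at both times, and at 24 h EIF3B, EEF1G and EEF1A2 lie to the left among 34 negative values.

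At 24 h after 2 Gy more of the factors were lower. EEF1A2, EEF1G and EIF3B fell and EIF4EBP2 rose, so that 4 of the 48 genes tested were called, 1 higher and 3 lower. Over all 14373 genes tested, 1.8% were called higher and 4.94% lower. Negative values were found for 34 of the 48, with a median of -0.12 against 0.01 over all genes. At an unadjusted p below 0.05 there were 14 of the 48, against 3096 of all 14373 genes. The groups did not overlap in 17 (35.4%), 6 higher and 11 lower, against 26.2% of all genes. With scaling by library size alone, an alternative added after seeing the data, the split was 0 higher and 6 lower, against 1.5% higher and 7.27% lower of all genes, and the call of EIF4EBP2 was lost (edgeR adjusted p = 0.078).

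Among the elongation factors all 6 had negative log2 fold changes at 24 h under every scaling, and 2 were called. EEF1G, the structural gamma subunit of the eEF1 complex (ENSLAFG00000003339, scaffold 71, 6917424 to 6928449, plus strand), was at 582, 584 and 582 CPM in untreated and 405, 431 and 442 CPM in irradiated libraries. The untreated libraries lay close together and all irradiated libraries were below them. The log2 fold change was -0.46 ± 0.09 (0.726 of the untreated level, edgeR adjusted p = 0.025). EEF1A2 (ENSLAFG00000004005, scaffold 121, 706257 to 713706, plus strand) was at 20.4, 25.9 and 28.5 CPM in untreated and 8.05, 10.8 and 12.1 CPM in irradiated libraries, with no overlap. It had the largest fall of the 48, -1.29 ± 0.18 on the log2 scale (0.41 of the untreated level, edgeR adjusted p = 0.0091), and it kept its call without any single library. Its value is uncertain because EEF1A1, a close paralog, was not analysed here and could share reads with it. The remaining elongation genes did not pass: EEF1B2 had -0.29 ± 0.09 (edgeR adjusted p = 0.12, but called lower with DESeq2 at 0.039 and with library size scaling at 0.048), EEF2 -0.26 ± 0.10 (0.21), EEF1D, the delta subunit of eEF1, -0.20 ± 0.12 (0.38) and EEF2K, the kinase that inhibits eEF2, -0.33 ± 0.15 (0.25).

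Of the 11 eIF3 genes, 10 had negative values at 24 h (9 of 11 with upper-quartile or RLE scaling), and EIF3B was called. EIF3B (ENSLAFG00000001540, scaffold 45, 4252528 to 4279659, plus strand), a core subunit with an RNA recognition motif, was at 110.4, 112 and 118 CPM in untreated and 87, 74.7 and 77.9 CPM in irradiated libraries. The irradiated libraries were all lower. Its log2 fold change was -0.51 ± 0.09 (0.7 of the untreated level, edgeR adjusted p = 0.021), whereas at 5 h it was 0.00 ± 0.08 (adjusted p = 0.99). EIF3E had -0.39 ± 0.09 (edgeR adjusted p = 0.056) and EIF3M, another subunit, -0.39 ± 0.10 (0.064), so neither passed in the fit of 6 libraries. Both were called lower with DESeq2 (adjusted p = 0.007 and 0.011), with library size scaling (0.027 and 0.022) and with all 12 libraries in the edgeR fit (0.01 and 0.034). DESeq2 called 4.22% of all genes higher and 7.72% lower, and the fit of 12 libraries 3.34% and 7.64%. EIF3J, the loosely bound subunit, was the positive exception at 0.11 ± 0.08 (edgeR adjusted p = 0.44). With EIF3A as the reference within each library, EIF3B per exon length was 0.427, 0.404 and 0.416 of EIF3A in untreated and 0.338, 0.293 and 0.316 in irradiated libraries at 24 h. These ratios do not overlap and do not depend on scaling (exact permutation test, two-sided p = 0.1, the smallest that 3 against 3 allow). The ratio was also lower at 5 h, without overlap, at 0.887, 0.885 and 0.82 without irradiation against 0.814, 0.811 and 0.769 after it (exact permutation p = 0.1). The log2 differences were -0.11 ± 0.05 at 5 h and -0.40 ± 0.06 at 24 h. The reference moved too, without overlap at either time. EIF3A had 0.11 ± 0.07 at 5 h and -0.12 ± 0.09 at 24 h (edgeR adjusted p = 0.55 and 0.49). With EIF3B at 0.00 ± 0.08, the lower ratio at 5 h went with a higher EIF3A and not with a lower EIF3B. For EIF4EBP2 over EIF4E the groups separated at 5 h, at 0.258, 0.303 and 0.218 against 0.418, 0.428 and 0.4 (exact permutation p = 0.1). At 24 h they overlapped, at 0.538, 0.39 and 0.556 against 0.542, 0.894 and 0.914 (exact permutation p = 0.2).

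The calls of EIF4EBP2, EIF3B and EEF1G at 24 h were each lost without any of untreated replicates 1, 2 or 3 or irradiated replicates 2 or 3. The edgeR adjusted p was then 0.083 to 0.16 for EIF4EBP2, 0.062 to 0.11 for EIF3B and 0.07 to 0.13 for EEF1G. Over the whole list, 1 gene was called without each of those 5 libraries and 6 were called without irradiated replicate 1. The share called over all genes in these fits is not given here, so these counts are not a result about the factors in particular.

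**Figure D2:**
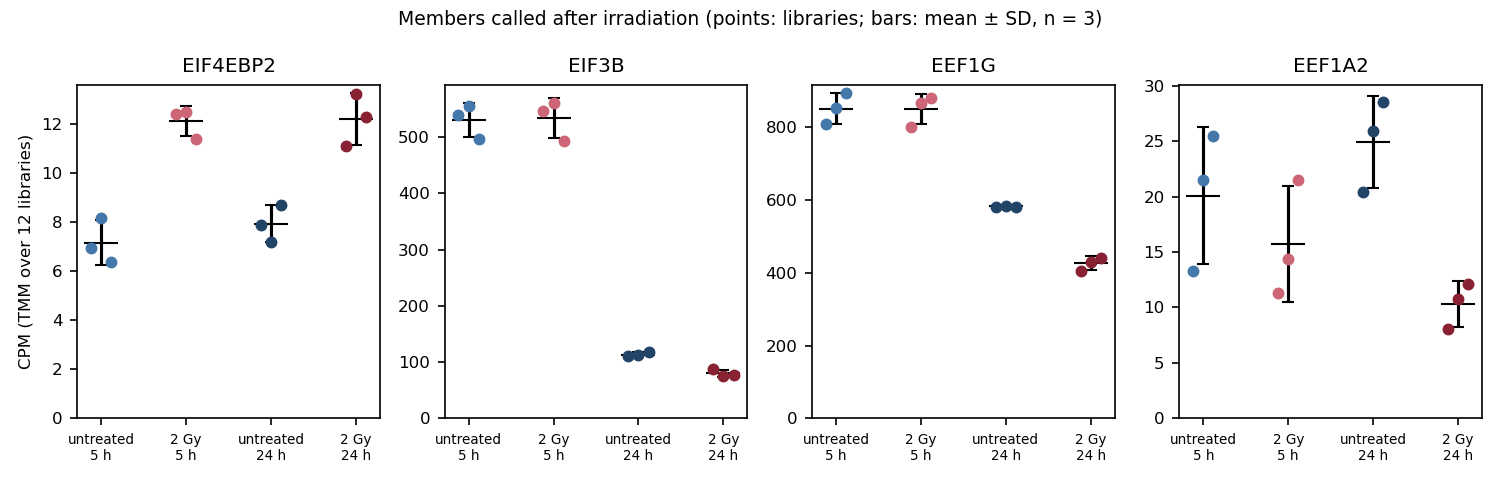
CPM (y axis, TMM scaling over 12 libraries) of EIF4EBP2, EIF3B, EEF1G and EEF1A2 in the 4 groups (x axis), with 1 point per library and bars for mean ± SD (n = 3). The irradiated libraries at 24 h lie above the untreated ones for EIF4EBP2 and below them for the other genes, and at 5 h the 2 groups separate for EIF4EBP2 alone.

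Neither the subunits of eIF2 and eIF2B nor the eIF2 kinases were called after irradiation at either time in the fits of 6 libraries. EIF2B3 was at 5.75, 5.58 and 5.8 CPM in untreated and 4.12, 4.48 and 3.35 CPM in irradiated libraries at 24 h, without overlap. Its log2 fold change was -0.52 ± 0.16 (edgeR adjusted p = 0.11), and it was called lower with all 12 libraries in the fit (0.038). EIF2S1, the phosphorylated alpha subunit of eIF2, had -0.10 ± 0.06 at 5 h (edgeR adjusted p = 0.55) and -0.31 ± 0.18 at 24 h (0.40). All 4 eIF2 kinases had negative values at 24 h under every scaling, from -0.10 for EIF2AK3 (PERK, which senses stress of the endoplasmic reticulum) to -0.33 for EIF2AK4 (GCN2, which senses lack of amino acids), with adjusted p from 0.25 to 0.73. EIF2AK2 (PKR, the interferon-induced sensor of double-stranded RNA) varied most of the 4 between libraries of 5 h, at 147, 126 and 199 CPM in untreated and 161, 128 and 200.3 CPM in irradiated libraries. Its highest value was in replicate 3 of both groups. Of the 7 genes of eIF2 and eIF2B, the exchange factor that reloads eIF2 with GTP, 5 had negative values at 24 h and 2 had positive ones (7 negative with library size scaling).

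The cap-binding and helicase genes were not called at 24 h in the fit of 6 libraries, and EIF4EBP2 was the single call among the eIF4E-binding genes. EIF4E3, an atypical cap-binding protein, was at 38.2, 45.8 and 41.8 CPM in untreated and 60.5, 47.9 and 51.1 CPM in irradiated libraries. These do not overlap, and the log2 fold change was 0.34 ± 0.11 (edgeR adjusted p = 0.14, and 0.049 with all 12 libraries in the fit). EIF4G3 had 0.20 ± 0.09 (edgeR adjusted p = 0.25), EIF4E 0.00 ± 0.17 (0.99) and EIF4A1 0.08 ± 0.12 (0.74). Of the start codon factors, EIF1B had 0.30 ± 0.08 at 24 h, without overlap (edgeR adjusted p = 0.088). It was called higher with DESeq2 (adjusted p = 0.033) and with a minimum count of 50 in edgeR (0.037).

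Counted together, the 49 genes took 1.49% to 1.57% of all counts in the libraries of 5 h, 1.14%, 1.09% and 1.15% at 24 h without irradiation, and 0.971%, 0.987% and 1.01% at 24 h with it. By this share of raw totals the irradiated libraries of 24 h were the lowest and did not overlap with the untreated ones. Their mean share was 0.99% ± 0.02 against 1.13% ± 0.031 (SD, n = 3 each, exact permutation test, two-sided p = 0.1, the smallest possible). At 5 h the shares were 1.55% ± 0.027 and 1.53% ± 0.034 (exact permutation p = 0.5).

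Markers of several blood cell types differed after irradiation as well. At 5 h, beside the rise of EIF4EBP2, 2 of 12 B cell markers were called lower and all 12 were negative (summed level 333 to 396 CPM in untreated and 216 to 275 CPM in irradiated libraries). At the same time 1 marker each of monocytes, neutrophils and platelets was called higher, namely ITGAM (855 ± 91.6 to 1547 ± 209 CPM, SD, n = 3), S100A9 and GP9. CSF1R, the other leading monocyte marker, was at 1382 ± 424 CPM in untreated and 1199 ± 288 CPM in irradiated libraries. At 24 h 11 of 12 B cell markers were called lower, and their summed level was 533 to 609 CPM in untreated and 179 to 204 CPM in irradiated libraries. Of 8 NK and cytotoxic markers 6 were called lower (426 to 485 against 166 to 240.4 CPM), and of 13 T cell markers 2 were (639 to 694 against 389 to 516 CPM). Monocyte markers were called higher in 3 of 7 (3326 to 3979 against 6083 to 7023 CPM), neutrophil markers in 2 of 8 and platelet markers in 3 of 6. All 7 monocyte markers were positive, but unequally. ITGAM went from 1236 ± 62.4 to 3124 ± 317 CPM, and CSF1R from 1408 ± 87.6 to 1425 ± 96.6 CPM. The part of these markers in the values of the translation factors was not tested. In bulk samples fewer cells of a type and less RNA per cell cannot be told apart.

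Whether the effect of irradiation differed between the times was tested by an interaction over all 12 libraries. For this term edgeR called 0 of 49 factors, against 0.125% called higher and 0.757% lower of all 15200 genes. At an unadjusted p below 0.05 there were 9 of the 49, against 1512 of all 15200. DESeq2, which called 0.526% higher and 1.86% lower of all genes, called 3 factors, all with a more negative effect at 24 h: EEF1G (-0.44, adjusted p = 0.00036), EIF3B (-0.50, 0.021) and EEF1B2 (-0.36, 0.042). The edgeR values were -0.45 ± 0.12 for EEF1G (adjusted p = 0.12), -0.51 ± 0.13 for EIF3B (0.10) and -0.37 ± 0.12 for EEF1B2 (0.27). The interaction was negative for 40 of the 49 genes, including all 11 eIF3 and all 6 elongation genes (9 of 11 eIF3 genes with upper-quartile scaling, and 10 of 11 with DESeq2, RLE scaling or a minimum count of 50, with EIF3J at -0.01 turning sign in each). EIF4EBP2 had -0.14 ± 0.18 (edgeR adjusted p = 0.93), within its SE of 0.

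Between 5 h and 24 h in untreated cells most of the factors changed. Of 48 tested, 38 fell and 5 rose, and 5 did not pass. Over all 13445 genes tested 30.5% were called lower and 32.6% higher, and the groups did not overlap in 68.6%, against 44 of the 48 factors (91.7%). The median log2 fold change was -0.54 against 0.11 over all genes, and 41 of the 48 lay below the median of all genes. This comparison depends on scaling, since TMM factors were 0.85 to 0.89 at 5 h and 1.09 to 1.29 at 24 h. With library size alone 21 factors were called lower and 8 higher, against 16.6% and 52.5% of all genes, and the median was -0.12 against 0.53 over all genes. The factors' median minus that of all genes, which a change of scaling cannot move, was -0.644, and it was -0.854 without a filter and -0.534 with a minimum count of 50. The times were deposited in separate tables, so time and any difference in handling between the tables cannot be told apart.

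The 5 genes that rose were EIF4G3, EIF4EBP1, EIF2AK4, EIF4E3 and EEF2K, and all 5 were called higher with library size scaling too. EIF4G3 (ENSLAFG00000012534, scaffold 26, 1067573 to 1244030, plus strand), a paralog of the scaffold EIF4G1, went from 106, 103 and 88.6 to 232, 251 and 238 CPM. No library of 24 h was near those of 5 h, and the log2 fold change was 1.31 ± 0.10 (2.49-fold, edgeR adjusted p = 1.3e-05). EIF4EBP1 rose by 1.07 ± 0.13 (2.1-fold, adjusted p = 0.00016), EIF2AK4 by 0.95 ± 0.12 (0.00021), EIF4E3 by 0.86 ± 0.09 (6.4e-05) and EEF2K by 0.56 ± 0.12 (0.0037) on the log2 scale of the edgeR fit. EIF4EBP1, EIF2AK4 and EEF2K are known as inhibitors of translation, and EIF4G3 and EIF4E3 as relatives of the main cap-binding factors.

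The largest falls were of EIF3B, EIF4G2, EIF4G1, EIF3J, EIF4A1, EIF5B, EIF1B and EIF3A, all of which were called lower with library size scaling too. EIF3B went from 539, 555 and 497 to 110.4, 112 and 118 CPM, the largest fall of the list, with a log2 fold change of -2.19 ± 0.10 (0.22 of the level at 5 h, edgeR adjusted p = 1.3e-06). EIF4A1 (ENSLAFG00000001107, scaffold 47, 11610613 to 11616327, plus strand) went from 2567, 2520 and 2736 to 818, 902 and 980 CPM (-1.5 ± 0.10, edgeR adjusted p = 9.4e-06). EIF4G1 (ENSLAFG00000005471, scaffold 25, 4754358 to 4770713, plus strand) went from 841, 835 and 701 to 233, 277 and 289 CPM (-1.54 ± 0.12, edgeR adjusted p = 1.4e-05). In each of the 3 genes all libraries of 24 h were below all of 5 h. EIF4G2, the scaffold of cap-independent initiation, fell by 1.60 ± 0.12, EIF3J by 1.5 ± 0.08, EIF5B by 1.35 ± 0.18, EIF1B by 1.14 ± 0.11 and EIF3A by 1.13 ± 0.09 on the log2 scale, with edgeR adjusted p between 3.4e-06 and 0.0003.

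By role, all 11 eIF3 genes fell with TMM scaling, from -0.30 for EIF3G to -2.19 for EIF3B, whereas with library size alone 9 were negative and 6 called, and EIF3G and EIF3L turned positive. Among the genes of eIF4A, eIF4G and eIF4H, 6 of 7 fell and EIF4G3 rose, and 5 of the 6 were called lower with library size alone, where EIF4A2 was at -0.00097. Of the 6 elongation genes, 4 fell: EEF1B2 (-0.92 ± 0.09), EEF2 (-0.71 ± 0.10), EEF1D (-0.55 ± 0.09) and EEF1G (-0.51 ± 0.09), and with library size alone the calls of EEF1D and EEF1G were lost at -0.13 and -0.09. EIF6, which keeps the ribosomal subunits apart, fell by 1.11 ± 0.11, and EIF6 and EIF5B remained called lower with library size alone. Of the 7 eIF2 and eIF2B genes 6 fell, with EIF2S1 at -0.78 ± 0.11 (edgeR adjusted p = 0.00039), but EIF2B2, EIF2B3 and EIF2B4 were positive with library size alone. EIF4E fell by 0.73 ± 0.10 (edgeR adjusted p = 0.00025), also with library size alone.

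The eIF2 kinases did not move together. EIF2AK4 rose, EIF2AK2 had -0.59 ± 0.19 (edgeR adjusted p = 0.025) and EIF2AK3 -0.27 ± 0.08 (0.022), and EIF2AK1 (HRI, which senses lack of heme) had -0.06 ± 0.09 (0.55). With library size alone EIF2AK3 was 0.15 and EIF2AK1 0.36, and EIF2AK2 was not called. Leaving out single libraries ended the call of EIF2AK2 (without untreated replicate 3 of 5 h, or replicate 1 or 3 of 24 h, adjusted p 0.052 to 0.075) and of EIF2AK3 (without replicate 1 of 24 h, 0.073). The genes not called in the TMM fit were EIF2D, EIF2B3, EIF2AK1, EIF4EBP2 (0.19 ± 0.15, edgeR adjusted p = 0.30) and EEF1A2 (0.35 ± 0.22, 0.20).

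**Figure D3:**
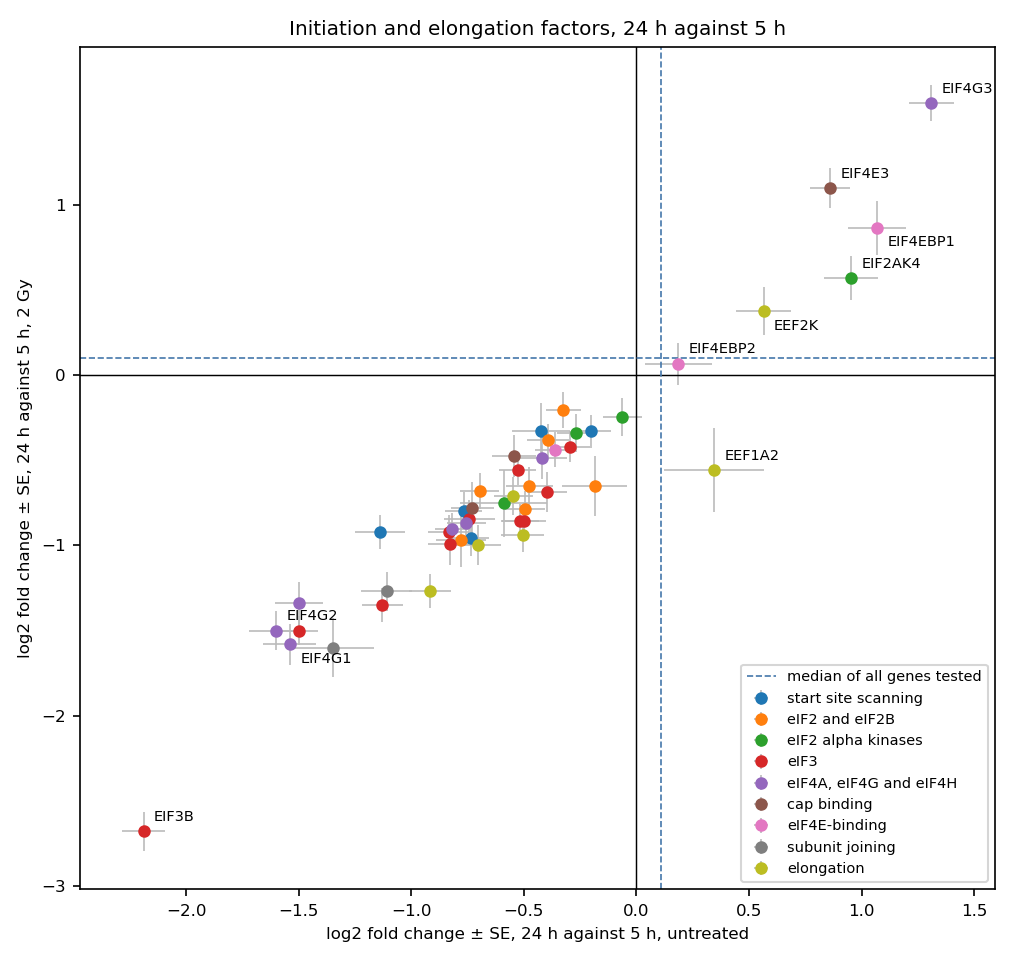
Log2 fold change of 24 h against 5 h (± SE) for the 48 tested factors in untreated (x axis) and irradiated libraries (y axis), coloured by role, with dashed lines at the median of all genes. EIF4G3, EIF4E3, EIF4EBP1, EIF2AK4 and EEF2K lie to the upper right and EIF3B to the lower left, at -2.19 and -2.68.

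The irradiated libraries, which share none with the untreated comparison, gave 38 lower and 5 higher factors at 24 h against 5 h, against 30.6% lower and 35.3% higher of all 14028 genes. This comparison was added after the untreated comparison had been seen. With library size alone 28 were called lower and 6 higher, against 18.7% and 49.7% of all genes. With TMM scaling the same 5 genes were called higher in both comparisons, and 36 were called lower in both, which is 94.7% of the genes called lower in each. With library size alone 6 were higher in both and 21 lower in both, which is 100% of those lower in untreated and 75% of those lower in irradiated libraries. EEF2K, however, lost its call in the irradiated comparison when replicate 1, 2 or 3 of 5 h or replicate 2 or 3 of 24 h was left out (edgeR adjusted p 0.054 to 0.28). Its call there was also lost with DESeq2 (0.079), RLE scaling (0.068), no filter (0.1) and all 12 libraries (0.06). None of the factors was called in opposite directions with either scaling. These overlaps were not counted over all genes, so no background share stands beside them. EIF2D and EIF2B3 were called lower in irradiated libraries alone, and EIF2B4 and EIF1 in untreated libraries alone, and these differences were not called by the interaction test. The median was -0.77 against 0.10 over all genes. EIF3B fell by 2.68 ± 0.11 and EIF4G3 rose by 1.60 ± 0.10 on the log2 scale (edgeR adjusted p = 2.1e-06 and 7.8e-06). EEF1G fell by 0.94 ± 0.10 (edgeR adjusted p = 9.1e-05).

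Ratios of related genes within a library, per exon length, do not depend on scaling. They were chosen after the values were seen, and 6 ratios were computed. EIF4G3 over EIF4G1 was 0.12, 0.117 and 0.119 in untreated libraries at 5 h and 0.944, 0.858 and 0.778 at 24 h, and in irradiated libraries it was 0.117, 0.102 and 0.116 at 5 h and 0.898, 1.08 and 1.05 at 24 h. The 2 scaffolds thus stood far apart at 5 h and near each other at 24 h, with log2 differences of 2.85 ± 0.08 and 3.17 ± 0.10. EIF4E3 over EIF4E had means of 0.367 ± 0.0215 and 0.377 ± 0.018 at 5 h (untreated and irradiated) and 1.1 ± 0.0404 and 1.42 ± 0.182 at 24 h. EIF4A2 over EIF4A1 was 0.371 ± 0.0184 and 0.431 ± 0.00924 at 5 h and 0.78 ± 0.0638 and 0.782 ± 0.0475 at 24 h. EIF3B over EIF3A had 0.864 ± 0.0381 and 0.798 ± 0.0252 at 5 h and 0.416 ± 0.0115 and 0.316 ± 0.0225 at 24 h. In these 4 ratios the libraries of 5 h and 24 h did not overlap in either treatment (exact permutation test, two-sided, p = 0.1 for each of the 8 comparisons over time, the smallest possible, so none can pass 0.05).

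**Figure D4:**
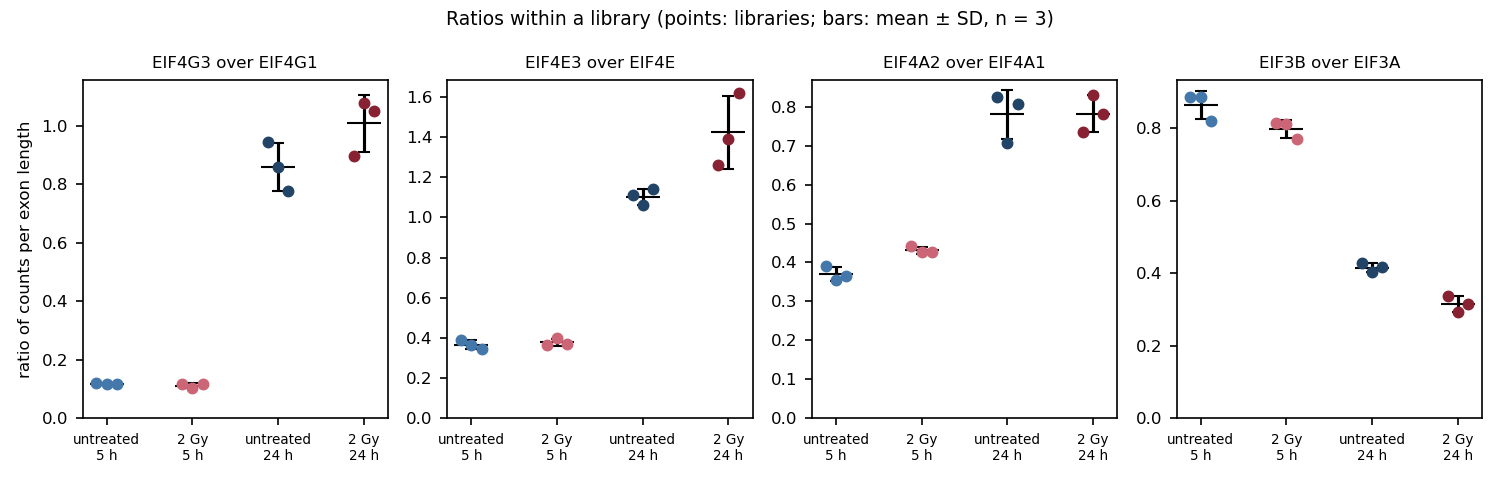
Ratio of counts per exon length (y axis) for 4 pairs of related genes in the 4 groups (x axis), with 1 point per library and bars for mean ± SD (n = 3). EIF4G3 over EIF4G1, EIF4E3 over EIF4E and EIF4A2 over EIF4A1 are higher at 24 h in all libraries, and EIF3B over EIF3A is lower.

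Cell type markers changed with time in the same libraries. Of 8 neutrophil markers, 6 were called lower at 24 h against 5 h in untreated libraries, with summed levels of 1112 to 1363 CPM at 5 h and 249 to 337 CPM at 24 h. T cell markers were called higher in 9 of 13, NK and cytotoxic markers in 6 of 8 and B cell markers in 6 of 12. In irradiated libraries 5 of 8 neutrophil markers were called lower and 4 of 13 T cell markers higher, with 2 lower. B cell markers there went the other way, with 10 of 12 called lower and 2 higher (median log2 fold change -1.95, against 0.46 in untreated libraries), and of 8 NK and cytotoxic markers 2 were called lower and 1 higher. The interaction called 9 of the 12 B cell markers lower (edgeR). Their part in the values of the translation factors over time was not tested.

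Other genes of the translation pathway were read from lists chosen beside the factors. Over all genes, edgeR called 1.12% higher and 0.478% lower at 5 h, and 1.8% higher and 4.94% lower at 24 h. After irradiation, 0 of 8 genes of termination and ribosome recycling were called at either time (edgeR). Of 19 poly(A)-binding and scanning genes 0 were called at 5 h and 1 fell at 24 h, PDCD4, an inhibitor of eIF4A (-0.48 ± 0.10, edgeR adjusted p = 0.034), which went from 117 ± 8.53 to 84.1 ± 5.51 CPM (SD, n = 3). Of 12 enzymes that modify factors, DPH2, needed for the diphthamide of eEF2, fell at 24 h (-0.70 ± 0.11, edgeR adjusted p = 0.015). Of 17 TOR and MAP kinase genes, SESN2, a stress-induced inhibitor of TOR complex signalling, rose from 10.7 ± 1.36 to 32.8 ± 3.06 CPM at 5 h (1.61 ± 0.12, edgeR adjusted p = 0.00047) and from 12.8 ± 3.22 to 29.6 ± 10.1 CPM at 24 h (1.19 ± 0.27, adjusted p = 0.046). The kinase gene AKT1 fell at 24 h (-0.41 ± 0.08, edgeR adjusted p = 0.033). Of 11 genes of the integrated stress response, the pathway downstream of eIF2 phosphorylation, ATF3 rose at 5 h (2.03 ± 0.22, edgeR adjusted p = 0.0034) and at 24 h (1.19 ± 0.11, adjusted p = 0.0021), and ASNS, asparagine synthetase, fell at 24 h (-0.85 ± 0.16, adjusted p = 0.025). Of 10 mitochondrial translation factors all were negative at 24 h and TSFM, the mitochondrial exchange factor, fell (-0.72 ± 0.13, edgeR adjusted p = 0.021).

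Over time in untreated libraries these lists held calls in both directions, beside 30.5% called lower and 32.6% higher over all genes. Lower and higher genes numbered 4 and 2 of 8 for termination and recycling, 11 and 5 of 19 for poly(A)-binding and scanning, and 6 and 3 of 12 for modifying enzymes. The TOR and MAP kinase genes had 8 lower and 4 higher of 17, the integrated stress response 2 lower and 4 higher of 11, and the mitochondrial factors 7 lower and 1 higher of 10. Their median log2 fold changes were -0.23, -0.50, -0.33, -0.28, 0.28 and -0.38 in that order, beside 0.11 over all genes and -0.54 for the 48 initiation and elongation factors.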

How the data were processed

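RNA sequencing of 12 libraries of blood cells was used. The authors deposited raw read counts per Ensembl gene in 1 table per time point, and the 2 tables hold the same 16406 genes. Coordinates are those of L_africana_Jul_2009 scaffolds per the file headers, printed as given, and the deposited exon lengths were used for levels per length. Aligner, counting program and strand setting: not given in the sources used here. Reads of genes that overlap on opposite strands may therefore be mixed. No gene sequence was used.

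The tests used edgeR 4.0.16 (R 4.3.3) with TMM scaling, filterByExpr with a minimum count of 10, the quasi-likelihood F test on the groups compared without a block, and Benjamini-Hochberg adjustment over all genes tested. Standard errors come from the F statistic. DESeq2 1.42.0, RLE, upper-quartile and library size scaling, no filter, a minimum count of 50, all 12 libraries, a replicate block and leaving out each library were alternatives. The procedure was tested on simulated data with log2 changes of 1 and 2. For irradiation at 5 h it called 83% and 97% of these, and at 24 h 53% and 75%. For untreated 24 h against 5 h it called 71% and 91%. Changes were thus missed more often in the irradiation comparison of 24 h.

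The genes, the lists and the rules were chosen with earlier results of these data known. Genes named are those called after irradiation or in the interaction, up to 8 per direction over time, and a set of key factors. A few others were named after their values were seen, namely EIF1, EIF2B2, EIF2B3, EIF2B4, EIF2D, EIF3G, EIF3L, EIF3M and EIF4E1B. For other translation lists, called genes are named, at most 4 per list and time.

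The labels number the replicates 1 to 3 in each group. Over 12969 genes, same-numbered libraries of the 2 groups at 5 h had deviations from their group means that correlated at 0.374, 0.325 and 0.571, so the numbers pair these libraries.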

Additional observations from a re-analysis of the deposited data

How the results depend on the processing

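Of 2100 values of the named factors under an alternative, 1952 kept their direction and their status as called or not called. Values called in neither fit count among these, so the total does not measure how stable the calls were. Of the rest, 55 lost and 36 gained a call, 54 changed sign without a call in either fit, 2 called values reversed, and 1 gained a call in the other direction. These last all belong to untreated 24 h against 5 h with library size scaling: EIF2AK3 (0.146) and EIF4ENIF1 (0.055) reversed, and EIF2AK1 (0.356) gained its call. For irradiation at 5 h the replicate block called 6 factors, and leaving out a library gave 0 to 1. The 1 call there was lost without 4 of the 6 libraries. For irradiation at 24 h DESeq2 and all 12 libraries called 8 each and the replicate block 1, and leaving out a library gave 1 to 6. The 4 calls there were lost 15 times over the 6 libraries left out in turn. The median there was -0.2 with library size scaling and -0.207 to -0.0666 leaving out a library. For the interaction DESeq2 called 3 and the replicate block 1, EEF1A2. Over time in untreated libraries the median was -0.298 with upper-quartile scaling, -0.12 with library size scaling, -0.597 without a filter, -0.474 with a minimum count of 50 and -0.615 to -0.54 leaving out a library. In irradiated libraries it was -0.531, -0.432, -0.849 and -0.658 under the same alternatives and -0.94 to -0.776 leaving out a library. Apart from the scalings and filters named, the cause was not tested. At 24 h same-numbered libraries correlated at 0.118, -0.396 and 0.648, and not every library correlated best with its own number, so the block there uses a shared number only. The same holds for the time comparisons, where the replicate block gave 44 calls each. No share over all genes is given for the fits leaving out a library, or for the block outside irradiation at 5 h. Those counts are therefore not a result about the factors in particular. Genes of low counts included EIF4EBP2 (186 to 393 per library) and EIF2B3 (66 to 255). EIF2AK2 and EIF5B had more counts and larger SEs than these (0.20 each for irradiation at 5 h). The part of depth in the SEs was not tested. Library size scaling and the irradiated time comparison were added after seeing the data.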
